A study of Mus musculus with 12 samples.

Results

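The 10 genes described here encode the enzymes that make fatty acids from acetyl-CoA and pass them on to triglyceride, with 1 transcription factor that acts on them: *Acly*, *Me1*, *Acaca*, *Acacb*, *Fasn*, *Elovl6*, *Scd1*, *Scd2*, *Dgat2* and *Srebf1*. They were taken by name and not by a threshold on a measured value, but with earlier results of these data known, so that counts of called members are a description and not independent evidence. They are 10 of the 18820 genes that had a probe set (transcript cluster) annotated with 1 symbol. All 10 were measured, by 12 probe sets in all, since *Acaca* and *Me1* had 2 each; the probe set with the highest mean signal over the arrays stood for the gene. Hind limb skeletal muscle and heart were compared between mice lacking thymidine kinase 2, a mitochondrial enzyme that salvages thymidine for the synthesis of mitochondrial DNA (*Tk2*-/-), and wild-type mice (*Tk2*+/+). There were 4 groups (*Tk2*+/+ muscle, *Tk2*-/- muscle, *Tk2*+/+ heart and *Tk2*-/- heart) with 3 arrays each, 12 in all, from C57BL/6 mice aged 11 days. According to the methods the 3 mice of a genotype were different animals, bred by mating heterozygotes, and the knockout is one of the whole animal. Whole tissue was hybridized, and in such bulk samples fewer cells of a type and less RNA per cell cannot be told apart.

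Fatty acids are built in the cytosol. Citrate leaves the mitochondrion and is split to acetyl-CoA, acetyl-CoA carboxylase turns this into malonyl-CoA, and fatty acid synthase condenses malonyl units into palmitate with NADPH as the reductant; palmitate is then lengthened, desaturated and esterified. The pathway is most active in liver, adipose tissue and lactating mammary gland, whereas in skeletal muscle and heart malonyl-CoA is best known as the inhibitor of carnitine palmitoyltransferase, the gate through which fatty acids enter the mitochondrion to be oxidized.

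Signals are linear intensities as deposited. Mean signal over all probe sets ranged from 202 to 252 on the muscle arrays and from 227 to 243 on the *Tk2*+/+ heart arrays, but from 147 to 168 on the *Tk2*-/- heart arrays, so the knockout heart arrays were dimmer as a whole. On the log2 scale the 9271 genes with a mean signal of at least 64 had a median change of -0.64 in *Tk2*-/- heart, 93.0% of them below 0, against 0.03 in muscle. Heart changes are therefore given both as deposited and after the 6 arrays of each tissue were brought to 1 distribution (quantile normalization within tissue), which set that median to 0.00. *Tk2* itself read 62.9, 68.5 and 63.1 in *Tk2*+/+ muscle, 64.7, 44.1 and 48.7 in *Tk2*-/- muscle, 70.2, 73.6 and 81.8 in *Tk2*+/+ heart and 30.1, 46.2 and 31.7 in *Tk2*-/- heart; no source used here places its probes inside or outside the disrupted sequence, so these values check no label. The tissue labels held: the summed signal of 10 skeletal muscle fibre markers was 45888 or more on every muscle array and 6883 or less on every heart array, and that of 9 cardiomyocyte markers was 1568 or less and 25407 or more. *Xist*, the RNA that coats the inactive X chromosome of female cells, was above a signal of 100 on 1 of 3 *Tk2*+/+ and 2 of 3 *Tk2*-/- muscle arrays and on 2 of 3 *Tk2*+/+ and 3 of 3 *Tk2*-/- heart arrays.

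In skeletal muscle both carboxylases, the synthase, the acyltransferase and the transcription factor were higher without *Tk2*. *Acaca*, *Acacb*, *Fasn*, *Dgat2* and *Srebf1* were between 1.55 and 2.03 times as high in *Tk2*-/- as in *Tk2*+/+ muscle (fold changes are on the scale of signal plus 16, the offset added before the log2), *Elovl6* was lower, and *Acly*, *Me1*, *Scd1* and *Scd2* did not pass the test. Thus 5 of 10 members were called higher, against 11.6% of all genes, and 1 of 10 was called lower, against 10.9% of all genes (limma, Benjamini-Hochberg adjusted p under 0.05). The members' median log2 fold change was 0.44, and that of all genes was -0.02. The knockout and wild-type arrays did not overlap for 5 members, all higher in the knockout, while 16.9% of all genes were higher and 18.8% lower in this way.

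The enzymes that supply carbon and reducing power come first. *Acly*, which splits cytosolic citrate to acetyl-CoA, had signals of 174, 151 and 133 in *Tk2*+/+ and of 142, 186 and 148 in *Tk2*-/- muscle. The groups overlapped, and the log2 fold change was 0.05 (95% interval -0.28 to 0.38, adjusted p = 0.885, limma). *Me1*, the cytosolic malic enzyme that yields NADPH, read 456, 571 and 468 against 631, 503 and 663. Its lowest knockout array lay within the wild-type range, and its change of 0.26 (-0.05 to 0.56) had an adjusted p of 0.257 in limma.

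Both acetyl-CoA carboxylases were higher. *Acaca* encodes ACC1, the cytosolic form whose malonyl-CoA is used for synthesis, and its signals were 123, 117 and 117 in *Tk2*+/+ and 181, 298 and 203 in *Tk2*-/- muscle. Every knockout array was above every wild-type array, and the wild-type arrays lay within a few units of each other. The log2 fold change was 0.82 ± 0.15 (SE, limma, adjusted p = 0.00105), a 1.76-fold difference. *Acacb* encodes ACC2, the form at the outer mitochondrial membrane of muscle whose malonyl-CoA restrains fatty acid oxidation. It read 682, 842 and 752 in *Tk2*+/+ muscle and 1234, 1525 and 1304 in *Tk2*-/- muscle. Here too the groups were apart, and the change of 0.82 ± 0.11 (SE, limma, adjusted p = 7.81e-05), 1.77-fold, had the smallest adjusted p among the members in this tissue.

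*Fasn*, the multifunctional synthase itself, had the largest increase of the 10. Its signals were 178, 133 and 144 (152 ± 23.6, SD, n = 3) in *Tk2*+/+ muscle and 227, 447 and 328 (334 ± 110, SD, n = 3) in *Tk2*-/- muscle. The knockout arrays were all above the wild-type arrays and were spread over a wider range, with replicate 2 highest and replicate 1 lowest. The log2 fold change was 1.02 ± 0.20 (SE, limma, adjusted p = 0.00142), or 2.03-fold with a 95% interval of 1.52 to 2.71, and 313 of the 18820 genes had a larger increase. Without knockout replicate 2 it was 0.79 with an adjusted p of 0.00791 (limma).

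None of the 3 enzymes that modify palmitate was called higher. *Elovl6*, which lengthens palmitate to stearate, read 188, 97.9 and 144 in *Tk2*+/+ and 63.6, 104 and 99.3 in *Tk2*-/- muscle. A pair of knockout arrays lay just above the lowest wild-type array, so the groups overlapped although the change of -0.58 ± 0.19 passed the test (SE, limma, adjusted p = 0.0335). That call was lost without *Tk2*+/+ replicate 1 (-0.38, adjusted p = 0.176), without *Tk2*+/+ replicate 3 (-0.56, adjusted p = 0.0893), without *Tk2*-/- replicate 1 (-0.40, adjusted p = 0.157) and after quantile normalization within tissue (-0.56, adjusted p = 0.061, limma in each case). *Scd1*, a stearoyl-CoA desaturase that places the double bond of oleate, read 1708, 1063 and 1807 against 632, 1812 and 1349. Knockout replicate 1 was the lowest and knockout replicate 2 the highest of the 6 muscle arrays. Its change of -0.36 carried a wide interval, -1.13 to 0.41 (adjusted p = 0.584), and was 0.07 without knockout replicate 1. *Scd2*, the desaturase paralog that is prominent in the nervous system and in newborn tissues, read 796, 636 and 666 against 590.4, 709.7 and 669.8, with overlapping groups and a change of -0.09 (-0.54 to 0.37, adjusted p = 0.854, limma).

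*Dgat2* encodes the acyltransferase that adds the last acyl chain to triglyceride and draws on newly made fatty acids. It read 316, 431 and 451 in *Tk2*+/+ and 889, 807 and 677 in *Tk2*-/- muscle, with the groups well apart. The log2 fold change was 0.97 ± 0.16 (SE, limma, adjusted p = 0.000376), or 1.95-fold. Unlike in *Fasn*, the highest knockout array was replicate 1. *Srebf1* encodes SREBP-1, the transcription factor that drives lipogenic genes in response to insulin. Its signals were 120, 97.7 and 98.6 in *Tk2*+/+ and 155, 183 and 177 in *Tk2*-/- muscle, again without overlap, and its change was 0.63 ± 0.13 (SE, limma, adjusted p = 0.00225), or 1.55-fold.

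**Figure D1:**
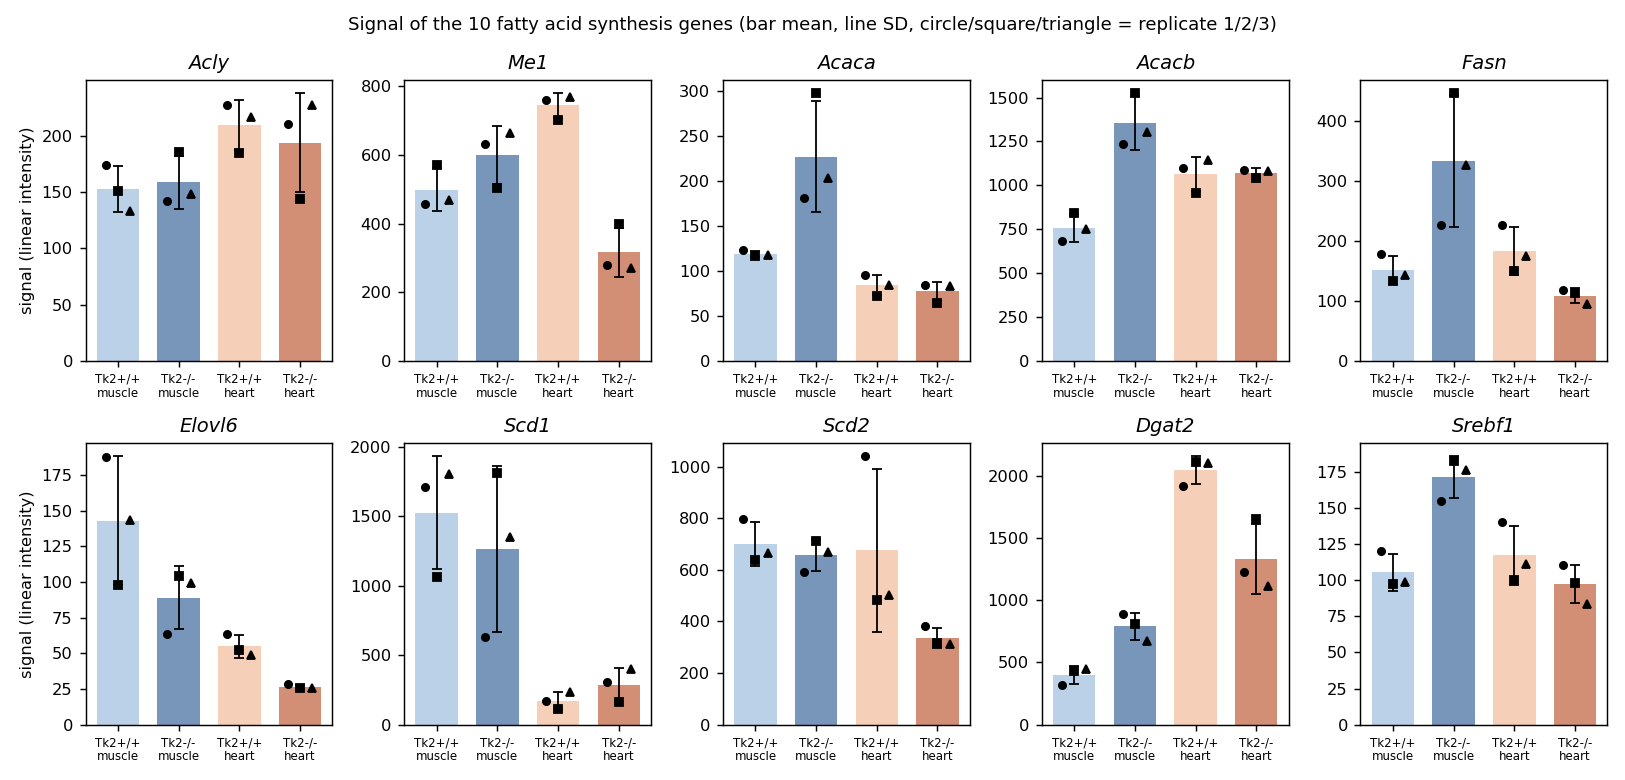
Linear signal (y axis, one panel and scale per gene) of the 10 genes in the 4 groups; bars are means of 3 arrays, lines are SD, and circles, squares and triangles are replicates 1, 2 and 3. *Fasn*, *Acaca*, *Acacb*, *Dgat2* and *Srebf1* stand higher in *Tk2*-/- than in *Tk2*+/+ muscle without overlap, and *Me1*, *Dgat2*, *Scd2*, *Elovl6* and *Fasn* stand lower in *Tk2*-/- than in *Tk2*+/+ heart as deposited.

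Sequence before a transcription start is shown for *Fasn*, *Acacb* and *Srebf1*, members that rose in muscle and whose windows hold an NF-Y box. They were chosen for both traits, so no link between the traits can be read from them. Of the 10 members, 7 were in the RefSeq promoter table used here (assembly GRCm38.p6), with 10 start sites among them; *Scd1*, *Scd2* and *Dgat2* were not. The 250 bases before the start are printed 5′ to 3′ in the direction of transcription, with each NF-Y box (CCAAT on either strand) in capitals. The *Fasn* window is chr11:120824548-120824797 on the minus strand, the *Acacb* window chr5:114165268-114165517 on the plus strand, and the *Srebf1* window, that of the third of its 3 listed starts, chr11:60210472-60210721 on the minus strand.
Fasn: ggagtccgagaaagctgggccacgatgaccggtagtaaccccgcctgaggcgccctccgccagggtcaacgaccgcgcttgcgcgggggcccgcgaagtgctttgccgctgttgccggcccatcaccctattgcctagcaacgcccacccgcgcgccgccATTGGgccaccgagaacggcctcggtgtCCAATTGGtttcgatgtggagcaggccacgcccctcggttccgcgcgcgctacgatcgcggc
Acacb: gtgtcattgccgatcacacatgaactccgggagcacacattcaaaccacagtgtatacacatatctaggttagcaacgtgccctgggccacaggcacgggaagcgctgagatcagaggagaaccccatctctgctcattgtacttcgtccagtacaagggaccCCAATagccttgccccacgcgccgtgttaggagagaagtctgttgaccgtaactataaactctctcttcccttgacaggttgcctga
Srebf1: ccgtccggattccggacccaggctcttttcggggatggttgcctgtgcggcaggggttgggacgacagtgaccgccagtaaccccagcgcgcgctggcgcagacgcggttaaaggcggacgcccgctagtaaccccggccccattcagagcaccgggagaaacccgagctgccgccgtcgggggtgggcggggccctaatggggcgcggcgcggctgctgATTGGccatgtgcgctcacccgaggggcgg
In *Fasn* the boxes begin 90, 62 and 59 bases before the start, the latter pair overlapping on opposite strands, and in *Acacb* the box begins 87 and in *Srebf1* 30 bases before it. Over the window from 250 bases before to 50 after the start, CCAAT was in 6 of the 10 member windows, from 5 of 7 members, and in 37.4% of all 32851 windows of the table. Besides the genes printed these members were *Acly* and *Me1*, which did not pass the test in muscle. No CCAAT was found for *Acaca*, which rose in muscle, or for *Elovl6*, which was lower there. The GC box GGGCGG, bound by Sp1, was in 4 of 10 windows from 3 of 7 members, and in 35.7% of all windows. Neither TCACNCCAC, a motif of SREBP, nor the E-box CACGTG was in any of the 10 windows on either strand, where 1.24% and 7.15% of all windows held them. The 3 annotated genes extend upstream of the windows printed, and the arrays do not tell which start was used.

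In the *Tk2*+/+ tissues the 10 genes were spread differently over muscle and heart. *Scd1*, *Elovl6* and *Acaca* were higher in muscle (3 of 10, against 30.6% of all genes), and *Dgat2*, *Me1*, *Acacb* and *Acly* were lower in muscle than in heart (4 of 10, against 18.4% of all genes). The widest differences were those of *Scd1*, with 1708, 1063 and 1807 in muscle and 167, 115 and 237 in heart (log2 difference 3.05 ± 0.36, SE, limma, adjusted p = 7.54e-06), and of *Dgat2*, with 316, 431 and 451 in muscle and 1920.3, 2117 and 2105 in heart (-2.33 ± 0.16, SE, limma, adjusted p = 1.12e-08). Both were far beyond the spread between arrays. *Elovl6* was 1.13 higher in muscle (adjusted p = 0.000179) and *Me1* lower, by -0.57 (adjusted p = 0.00512, limma). The smaller differences depended on scaling or on single arrays. *Acaca* (0.43, adjusted p = 0.0273, limma) lost its call in 5 of the 12 fits that left out 1 array. After quantile normalization within tissue *Acacb* (-0.48 to -0.07), *Acly* (-0.42 to -0.09) and *Me1* (-0.57 to -0.16) no longer passed the test. That scaling gives the *Tk2*+/+ heart arrays 1 distribution with the dimmer *Tk2*-/- heart arrays, which lowers them against muscle. The median difference of genes with a mean signal of at least 64 went from -0.11 to 0.23. These lost calls cannot be told apart from that shift.

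In heart, as deposited, no member was called higher. *Me1*, *Scd2*, *Elovl6*, *Fasn* and *Dgat2* were lower in *Tk2*-/- than in *Tk2*+/+ heart, 5 of 10 members, where 49% of all genes were called lower on these dimmer arrays. The count of members called higher by limma was 0 of 10 (also at an unadjusted p under 0.05, and 0 by the methods' t-test), against 1.99% of all genes. Arrays did not overlap for 5 members, all lower in the knockout, where this held for 53.3% of all genes lower and 3.16% higher. The count of lower members is thus close to the background. After quantile normalization within tissue 5 members were higher (*Scd1*, *Acacb*, *Acly*, *Acaca* and *Srebf1*; 16.1% of all genes) and 1 was lower (*Me1*; 15.9% of all genes). The median change of the members was -0.43 as deposited and 0.20 after it, and that of all genes was -0.28 and 0.01.

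*Me1* was the 1 member called lower under both scalings. It read 759, 702 and 769 in *Tk2*+/+ heart and 281, 399 and 271 in *Tk2*-/- heart, far apart, with a log2 fold change of -1.21 ± 0.14 (SE, limma, adjusted p = 8.38e-06) as deposited and -0.52 (adjusted p = 0.0062) after quantile normalization. *Fasn* read 227, 149.95 and 175 against 119, 114 and 95.4, without overlap. Its change of -0.66 ± 0.20 (SE, limma, adjusted p = 0.00956) was close to the shift of the whole array, became 0.00 after quantile normalization, and lost its call without *Tk2*+/+ replicate 1 (-0.51, adjusted p = 0.0569, limma). *Dgat2* was similar, with 1920.3, 2117 and 2105 against 1232, 1653 and 1112, a change of -0.63 ± 0.16 (SE, limma, adjusted p = 0.00277) and 0.00 after quantile normalization. *Scd2* read 1039, 484 and 502 against 382, 318 and 312. *Tk2*+/+ replicate 1 stood far above the other wild-type arrays, and without it the change of -0.88 (adjusted p = 0.00237) became -0.53 (adjusted p = 0.00348, limma). After quantile normalization its arrays overlapped and the change was -0.19 (adjusted p = 0.58, limma). *Elovl6* read 63.7, 52.4 and 48.6 against 28.4, 25.6 and 25.7, a tight and separate set of arrays, with a change of -0.73 (adjusted p = 0.00331) as deposited and -0.39 (adjusted p = 0.176, limma) after quantile normalization. Its knockout signals lie close to the offset of 16 added before the log2, which understates the change.

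The other 5 members did not pass the test in heart as deposited. *Acacb* read 1098, 956 and 1143 in *Tk2*+/+ and 1089, 1039.7 and 1084 in *Tk2*-/- heart, a change of 0.01 (-0.23 to 0.25, adjusted p = 0.949) as deposited and 0.69 (adjusted p = 0.000173, limma) after quantile normalization. *Scd1* was the member with the highest change, with 167, 115 and 237 against 304, 162 and 399. The groups overlapped, the change of 0.66 (-0.11 to 1.43) had an adjusted p of 0.152, and 104 of the 18820 genes had a higher one. Without *Tk2*-/- replicate 2 it was 1.003 (adjusted p = 0.0293), and after quantile normalization it was 1.34 (adjusted p = 0.0274, limma). *Acly* read 227, 185 and 216 against 211, 144 and 227 (-0.12 as deposited, 0.57 after, adjusted p = 0.0222 after). *Acaca* read 95.8, 72.9 and 85.2 against 84.2, 65.1 and 83.0 (-0.11 as deposited, 0.48 after, adjusted p = 0.0281 after). *Srebf1* read 140.4, 100.3 and 111 against 110.4, 98.3 and 83.8 (-0.23 as deposited, 0.39 after, adjusted p = 0.0148 after, limma). For these 3 genes the direction itself depended on the scaling.

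**Figure D2:**
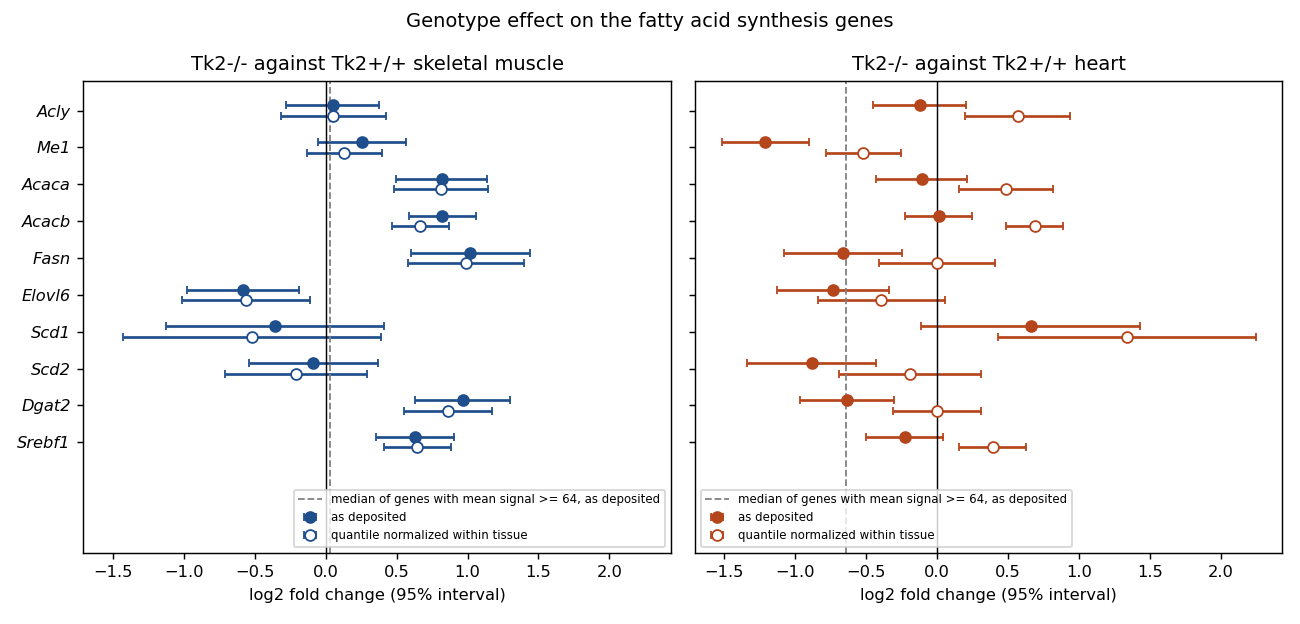
Log2 fold change of *Tk2*-/- against *Tk2*+/+ (x axis) with 95% intervals for each gene (y axis), in muscle (left) and heart (right); filled points are values as deposited, open points are values after quantile normalization within tissue, and the dashed line is the median of genes with a mean signal of at least 64. In muscle both kinds of point nearly coincide, whereas in heart the open points lie to the right of the filled ones, with *Me1* left of 0 under both.

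The genotype effect differed between the tissues for several members. The fit took muscle and heart arrays as independent, although some of them may come from the same animals. If *Xist* above 100 marks a female, not all arrays of a genotype can be such pairs, since the counts above differed between the tissues. Tested as an interaction in limma, 7 members had a higher change in muscle than in heart (*Fasn*, *Dgat2*, *Me1*, *Acaca*, *Srebf1*, *Acacb* and *Scd2*), where 41.3% of all genes did, and 0 had a lower one (also 0 at an unadjusted p under 0.05), where 1.39% did. After quantile normalization within tissue 3 members still did, *Fasn* (0.99, adjusted p = 0.0351), *Dgat2* (0.87, adjusted p = 0.0182) and *Me1* (0.65, adjusted p = 0.0329), against 5.14% of all genes higher and 4.98% lower. As deposited the differences of these 3 were 1.68 ± 0.28, 1.60 ± 0.22 and 1.46 ± 0.20 (SE, adjusted p = 0.00032, 0.00013 and 0.000138, limma). For *Fasn* and *Dgat2* every knockout array was above every wild-type array in muscle and, as deposited, below every one in heart, where the arrays overlapped after quantile normalization. The difference for *Acacb* went from 0.81 to -0.02 with the scaling, that for *Scd2* from 0.80 to -0.02, and those for *Acaca* (0.93 to 0.33) and *Srebf1* (0.86 to 0.26) no longer passed the test.

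The order of the 4 groups was taken from signals as deposited, where the *Tk2*-/- heart arrays were dimmer as a whole. Ordered by mean signal over the 4 groups, *Tk2*-/- muscle was highest for *Fasn*, *Acaca*, *Acacb* and *Srebf1*. It stood apart from the next group for *Acaca*, *Acacb* and *Srebf1*, but for *Fasn* its lowest array (227) met the highest *Tk2*+/+ heart array (227). *Tk2*+/+ heart was highest for *Dgat2*, *Me1* and *Acly*, and the 4 groups of *Dgat2* were all separate, in the order *Tk2*+/+ heart, *Tk2*-/- heart, *Tk2*-/- muscle and *Tk2*+/+ muscle. *Me1* followed with *Tk2*-/- and *Tk2*+/+ muscle, which overlapped, and then *Tk2*-/- heart, which did not. *Tk2*+/+ muscle was highest for *Scd1*, *Scd2* and *Elovl6*, overlapping with the next group in each. For *Scd1* both muscle groups were above both heart groups, for *Elovl6* and *Scd2* only *Tk2*-/- heart lay apart from its neighbour, and for *Acly* no group was separate from the next. Highest over lowest group mean ran from 1.37-fold in *Acly* to 8.84-fold in *Scd1*. After quantile normalization within tissue the heart groups of *Dgat2* overlapped.

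The second probe sets gave the same picture. That of *Acaca* read 49.8, 47.8 and 53.5 in *Tk2*+/+ and 79.3, 138 and 92.2 in *Tk2*-/- muscle, and 48.8, 36.6 and 40.2 against 40.6, 24.8 and 31.3 in heart. That of *Me1* read 431, 529.95 and 435 against 597, 478 and 601 in muscle and 725, 649 and 739 against 280.2, 379.5 and 269 in heart. As in the brighter probe sets, the *Acaca* groups were separate in muscle and overlapped in heart, and the *Me1* groups overlapped in muscle and were separate in heart. The desaturase genes are close relatives, and cross-hybridization between *Scd1* and its paralogs was not tested. For *Tk2*+/+ muscle minus heart the log2 difference of *Scd4* was -4.11 (adjusted p = 1e-09, limma). Those of *Scd2* (0.13) and *Scd3* (0.14) did not pass the test.

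The neighbouring steps of the pathway were read from lists of other genes. Over all genes 11.6% were called higher in muscle and 10.9% lower. Of 13 measured genes of acetyl-CoA and NADPH supply 4 were higher and 0 lower by limma: *Pcx*, the pyruvate carboxylase that replenishes oxaloacetate (1.19), *Nnt*, the transhydrogenase that makes NADPH in the mitochondrion (0.86), *Idh1*, the cytosolic isocitrate dehydrogenase (0.66), and *Acss2*, which activates acetate in the cytosol (0.42, adjusted p = 0.0486, and not past the test after quantile normalization, 0.32). The *Pcx* arrays were 102, 114 and 123 in *Tk2*+/+ and 227, 335 and 279 in *Tk2*-/- muscle, clearly apart. Among 14 measured genes of triglyceride assembly 4 were higher and 0 lower, *Lpin1*, a phosphatidate phosphatase (1.13), *Dgat1*, the other diacylglycerol acyltransferase (0.69), *Agpat2*, which makes phosphatidate (0.57), and *Lpin3* (0.48). Among 17 further genes of elongation and desaturation 1 was higher (*Hacd2*, an elongation dehydratase, 0.74) and 2 were lower (*Fads2*, the delta-6 desaturase, -0.42, and *Hacd4*, -0.36), both shares being near those of all genes or below them. The medians of the 3 lists in muscle, 0.14, 0.08 and 0.06, lay nearer to the -0.02 of all genes than the members' 0.44 did. After quantile normalization the higher counts of the 3 lists were 3, 5 and 1 and the lower counts 0, 2 and 4. The shares of all genes called in muscle after it were not counted.

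Of 23 measured regulators of lipogenesis 7 were higher in muscle and 3 lower, where 11.6% and 10.9% of all genes were, so that the lower count is near the background. *Nr1h3*, the liver X receptor alpha that induces *Srebf1*, read 55.5, 63.6 and 67.0 against 163, 150.0 and 129 (1.06), and *Mid1ip1*, whose product makes acetyl-CoA carboxylase polymerize, rose by 0.83. *Mlycd*, the decarboxylase that removes malonyl-CoA, rose by 0.87, and *Prkag3*, the muscle-specific gamma subunit of the AMP-activated kinase that inhibits acetyl-CoA carboxylase, was lower by -1.78 (937, 1289 and 771 against 320.5, 203 and 309.5). All 4 sets of arrays were separate. Against the same shares, 1 of 9 mitochondrial fatty acid synthesis genes was higher (*Mcat*, the malonyl transferase, 0.56) and 0 were lower. Among 5 genes of fatty acid activation *Acss1* (1.499) and *Acss3* (1.15), acetyl- and propionyl-CoA synthetases of the mitochondrion, were higher and *Acsl5*, a long-chain acyl-CoA synthetase, lower (-0.38).

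In heart most of these genes were lower on the values as deposited. In all 10 of 13 supply genes, 12 of 17 elongation genes, 9 of 14 triglyceride genes, 14 of 23 regulators, 8 of 9 mitochondrial synthesis genes and 3 of 5 activation genes were lower, and 0, 0, 0, 1, 0 and 1 were higher, against 49% and 1.99% of all genes. After quantile normalization the lower counts were 4, 5, 5, 2, 2 and 2 and the higher ones 1, 1, 0, 9, 2 and 2, against 15.9% and 16.1%. The supply genes with the largest decreases were *Taldo1* and *Me2*, a transaldolase and a mitochondrial malic enzyme (-1.28 and -1.10 as deposited, -0.59 and -0.63 after). In triglyceride assembly they were *Gpat3* and *Gpam*, both glycerol-3-phosphate acyltransferases (-1.59 and -1.24 as deposited, -0.95 and -0.55 after). These 4 genes kept their calls under both scalings (limma), as *Me1* did. Of the regulators named for muscle, *Mid1ip1* was called higher in heart under both scalings (0.60 as deposited, 1.27 after). *Prkag3* was called lower under both (-0.96 and -0.85), on dim signals of 5.66 to 45.0. *Nr1h3* (0.15 and 0.61) and *Mlycd* (-0.22 and 0.49) were called higher only after quantile normalization (limma).

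**Figure D3:**
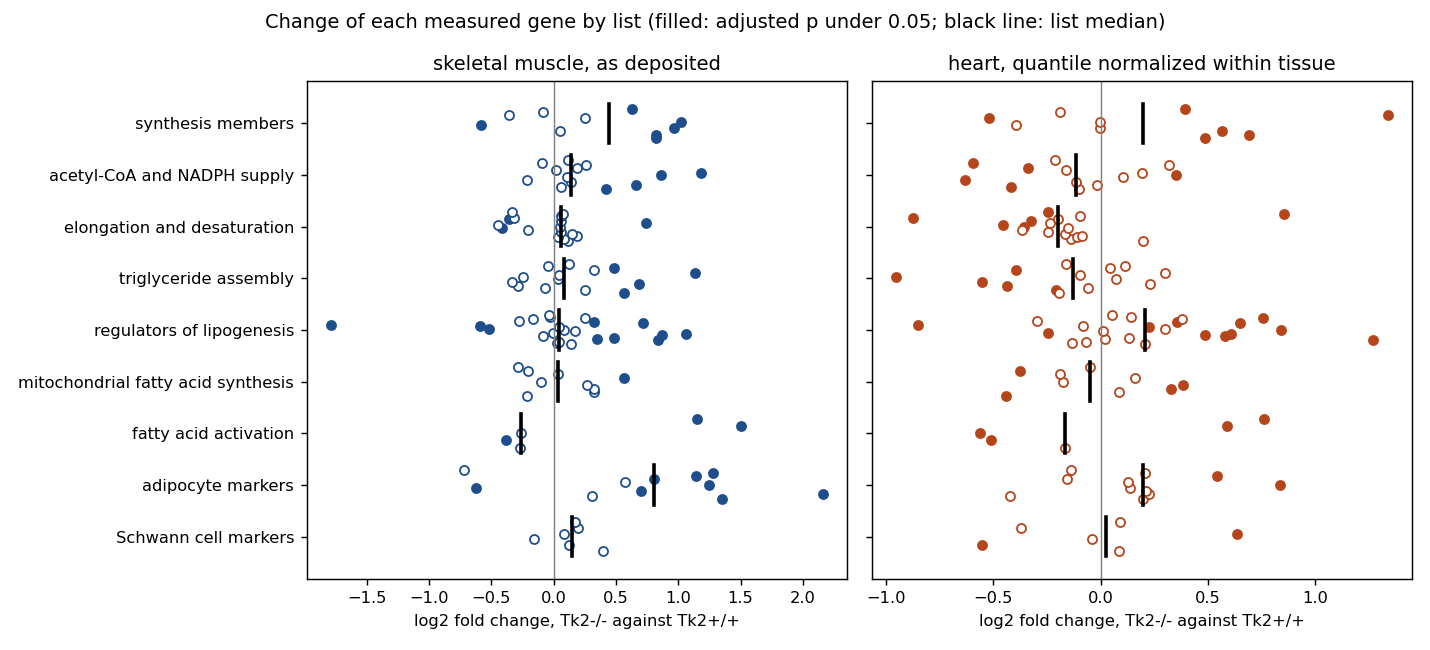
Log2 fold change of *Tk2*-/- against *Tk2*+/+ (x axis) of every measured gene of the pathway lists and of 2 marker lists (y axis), in muscle as deposited (left) and in heart after quantile normalization within tissue (right); filled circles passed an adjusted p of 0.05 in limma and black lines are list medians. In muscle the members' median (0.44) and that of the adipocyte markers (0.81) lie furthest right.

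Among markers of fat cells more were called higher than lower in *Tk2*-/- muscle. Of 11 measured adipocyte markers 7 were higher in *Tk2*-/- muscle (11.6% of all genes were), 1 was lower and 3 did not pass. After quantile normalization 6 were higher and 1 lower, and no share of all genes in muscle was counted for it. *Cidec*, a lipid droplet protein, read 87.8, 67.8 and 153 against 335, 709 and 499 (2.16), *Adipoq*, the adipokine adiponectin, 107, 94.8 and 194 against 208, 446 and 442 (1.35), and *Retn*, resistin, 247, 134 and 256 against 361, 671 and 572 (1.27). *Lipe* (1.25), *Pparg* (1.14), *Plin1* (0.81, with overlapping arrays) and *Fabp4* (0.70) rose too. *Lep*, leptin, fell to 16.7, 19.2 and 17.7 from 40.2, 32.7 and 36.1 (-0.63), and *Pck1* (0.57), *Cidea* (0.31) and *Ucp1* (-0.72) had intervals that included 0. The summed signal of the 11 markers was 2572 to 3439 in *Tk2*+/+ and 4487 to 6330.4 in *Tk2*-/- muscle, and no defining marker was at 0 there. Without *Fabp4*, the brightest of them, it was 847 to 1743 and 2006 to 3501. Within *Tk2*-/- muscle 8 of the 10 members, all but *Me1* and *Dgat2*, ranked the 3 arrays as the sum of the 11 markers did, with replicate 2 highest and replicate 1 lowest, whereas within *Tk2*+/+ muscle 1 did (*Dgat2*). With the sum without *Fabp4* the same 8 members did in *Tk2*-/- muscle, and in *Tk2*+/+ muscle 1 did, *Scd1* in place of *Dgat2*. The share of all genes with these orders was not counted, so no link to fat cells can be read from these counts. In heart the sum of the 11 markers was 3266 to 4115 in *Tk2*+/+ and 2626 to 3180 in *Tk2*-/-, overlapping the 2572 to 3439 of *Tk2*+/+ muscle. Without *Fabp4* the heart sum was 875 to 1251 in *Tk2*+/+ and 778 to 867 in *Tk2*-/-. In this tissue *Fabp4* read 1844 to 2864, *Lipe* 289 to 415, *Pparg* 188 to 270.2 and *Cidea* 139 to 422, while *Adipoq*, *Plin1*, *Cidec*, *Retn* and *Lep* read between 2.68 and 25.1 and *Pck1* was at 0 on 1 array. As deposited 2 of the 11 were lower in *Tk2*-/- heart (*Fabp4* and *Cidea*; 49% of all genes were) and 0 higher by limma, and after quantile normalization 0 were lower and 2 higher (*Lipe* and *Pparg*; 16.1% of all genes). The part of fat cells in the members' increase in muscle was not tested.

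Markers of nerve sheath cells, another source of lipid synthesis in these tissues, did not pass the test in muscle: 0 of 6 measured Schwann cell markers were called by limma (*Pmp22* 0.20, *Mag* -0.16, *Sox10* 0.17, *Egr2* 0.12, *Mal* 0.08, *Cnp* 0.40, all with an adjusted p of 0.0776 or more). Their summed signal was 3296 to 4137 in *Tk2*+/+ and 3514 to 4798 in *Tk2*-/- muscle, and 1723 to 1831 against 800.1 to 1035 on the dimmer heart arrays. In heart as deposited 3 of the 6 markers were lower and 0 higher by limma, beside 49% and 1.99% of all genes. After quantile normalization 1 was lower and 1 higher, beside 15.9% and 16.1% of all genes. The median change was -0.27 as deposited and 0.02 after it. In *Tk2*-/- muscle this sum ranked the arrays in the same order as the adipocyte sum. The same 8 members therefore shared its order by construction, which is no separate observation. In *Tk2*+/+ muscle 5 members ranked the arrays as the Schwann cell sum did (*Fasn*, *Acaca*, *Scd2*, *Srebf1* and *Elovl6*). The share of all genes that did was not counted. The part of these cells in the members' signal was not tested. Of the other lists in muscle, 5 of 7 fibroblast markers were lower and 1 higher, beside 10.9% of all genes lower and 11.6% higher. Their summed signal was 13231 to 15096 against 7419 to 9080.3. Beside the same shares, 1 of 5 endothelial markers was lower, 1 of 6 macrophage markers was higher and 1 of 9 cardiomyocyte markers was lower. Of 10 skeletal muscle fibre markers 0 were called (45888 to 61276 against 52231 to 55100). After quantile normalization 3 of 5 endothelial markers were lower, and no share of all genes was counted for it.

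**Figure D4:**
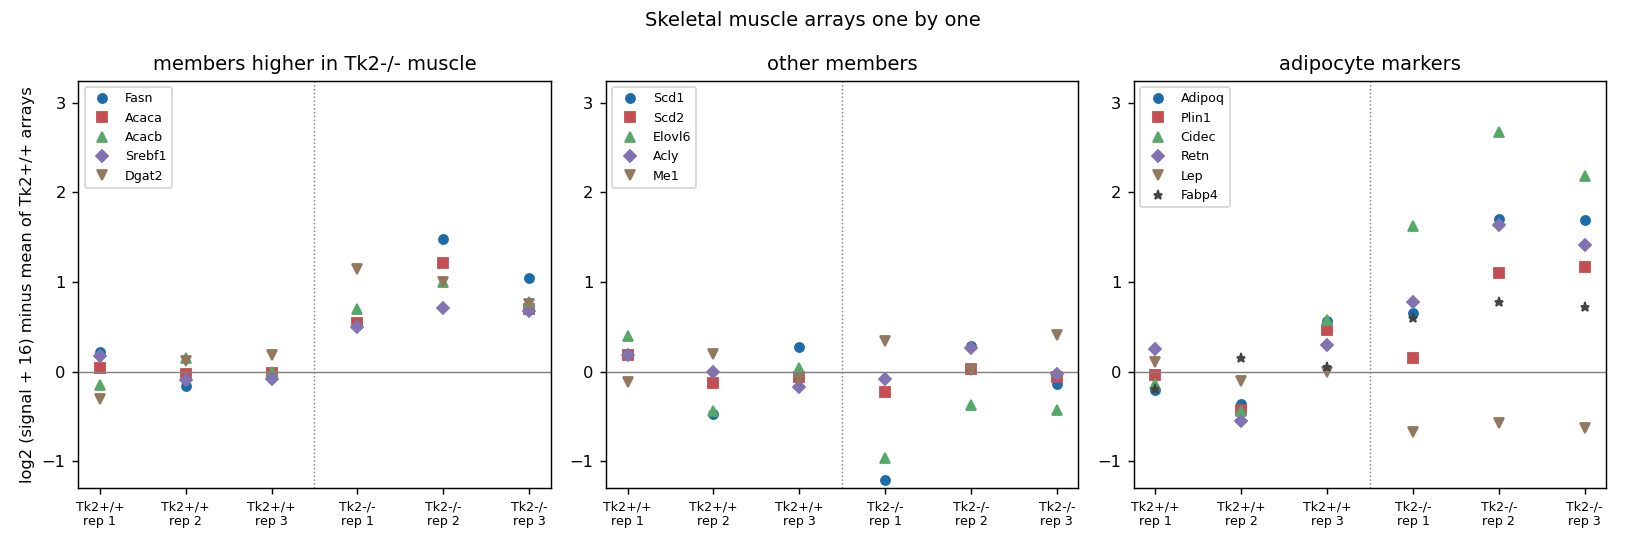
Log2(signal + 16) on each muscle array minus the mean of the *Tk2*+/+ muscle arrays (y axis) for the 5 members that were higher (left), the other 5 members (middle) and 6 adipocyte markers (right), by array (x axis). *Tk2*-/- replicate 2 is highest for *Fasn*, *Acaca*, *Scd1* and *Cidec*, *Tk2*-/- replicate 1 is lowest of the knockout arrays for *Fasn*, *Scd1* and *Elovl6*, and *Lep* lies below 0 on all 3 knockout arrays.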

How the data were processed

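Total RNA was hybridized to Affymetrix Mouse Gene 1.1 ST arrays after labelling with the Ambion WT Expression kit. The values deposited by the authors are linear intensities, 1 per probe set and array; per the labels Affymetrix Expression Console and PLIER, without versions, were used, and the study's methods mention normalized data and a t-test. Columns of other samples numbered 0. Of 35556 probe sets 21218 carried 1 symbol, 1881 several and 12457 none; 21185 of the first were found in a RefSeq gene table (GRCm38.p6), and the brightest per symbol left 18820 genes. An offset of 16 was added to the deposited intensity before log2, which understates changes of dim genes. The 4 group means were fitted with limma 3.58.1 in R 4.3.3 (lmFit, eBayes, 8 residual degrees of freedom), 2-sided, with Benjamini-Hochberg adjustment over 18820 genes and a threshold of 0.05, and the code was checked on simulated data. Quantile normalization ran over the 18820 genes within tissue. The number of arrays limits the precision. Replicate numbers were not used to pair arrays. Deviations of same-numbered arrays correlated between -0.27 and 0.11 between genotypes, and between muscle and heart from 0.13 to 0.26 in *Tk2*+/+ and from -0.18 to -0.12 in *Tk2*-/-. Whether both tissues came from the same animals is not stated, and the fit took all arrays as independent. The count of arrays with *Xist* above 100 differed between the tissues in both genotypes. If that threshold marks a female, not all arrays of a genotype can be muscle and heart of the same animals.

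Genes named are the 10 members, *Tk2* and *Xist*, up to 4 called genes with the largest change per pathway list, the adipocyte and Schwann cell markers, and the 5 genes most like *Fasn* and *Scd1*. *Scd3*, *Scd4* and the genes a small count refers to were chosen after their values were seen. The members and lists were chosen with earlier results of these data known. Of the genes listed, 13 had no probe set with that symbol alone, among them *G6pdx*, *Acsl1* and *Acsl3*, and are not analysed here. Alternatives tried were other scalings, an offset of 1, filters, probe set rules, each tissue alone, trend and robust priors, array weights, a replicate block, sex, the methods' t-test and leaving out each array. Figures used Python 3.11.15, pandas 2.3.3, NumPy 2.4.6 and matplotlib 3.10.9.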

Additional observations from a re-analysis of the deposited data

Results flagged for a closer look

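The genotype effect, tested as an interaction in limma, was higher in muscle than in heart for 7 of the 10 genes. On the log2 scale the difference was 1.68 for *Fasn*, 1.60 for *Dgat2*, 1.46 for *Me1*, 0.93 for *Acaca*, 0.86 for *Srebf1*, 0.81 for *Acacb* and 0.80 for *Scd2*, beside a median of 0.30 over all genes and of 0.70 over the 9271 genes with a mean signal of at least 64. After quantile normalization within tissue, where those medians were 0.00 and 0.01, *Fasn* (0.99), *Dgat2* (0.87) and *Me1* (0.65) passed the test and *Acaca*, *Srebf1*, *Acacb* and *Scd2* did not. The lower brightness of the *Tk2*-/- heart arrays moved with the difference as deposited, and its part in it was not tested beyond this.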

How the results depend on the processing

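The 5 genes higher in muscle kept their calls under every scaling, filter, probe set rule and prior, with the replicate block and in all 12 fits that left out 1 array; 1 was counted by the methods' t-test at their 2-fold threshold and 0 after Benjamini-Hochberg. The count of 1 lower gene in muscle (*Elovl6*) became 0 with median centring, both quantile normalizations, cyclic loess, upper quartile scaling, an offset of 1, each tissue alone, sex as a covariate, both forms of the t-test and the replicate block (-0.58, adjusted p = 0.0796, limma), and ranged from 0 to 1 with 1 array left out. The replicate block changed no other call of a member. The replicate number taken as an animal shared by the tissues gave 7 higher and 0 lower for the difference. Its estimated correlation was -0.02, so that fit could hardly differ from the main one. The *Xist* call also differed between the tissues for *Tk2*+/+ replicate 1 and *Tk2*-/- replicate 2. No conclusion is drawn from that setting. In heart the 0 higher genes became 2 with median centring, 5 with both quantile normalizations, cyclic loess and upper quartile scaling, and 1 with array weights (0 to 1 with 1 array left out), and the 5 lower genes became 1 with each of those 5 scalings, 1 by the t-test at 2-fold and 2 by the t-test after Benjamini-Hochberg. The 7 genes with a higher effect in muscle than in heart became 3 with quantile normalization (both), cyclic loess and upper quartile scaling, 5 with median centring (without *Acaca* and *Scd2*), and 6 with an offset of 1, trend and robust priors or sex as a covariate (without *Scd2* in each), and the 0 with a lower effect became 1 with array weights (0 to 1 with 1 array left out, 1 without *Tk2*-/- muscle replicate 2 or heart replicate 2, *Scd1* in each). The 4 genes lower in *Tk2*+/+ muscle than heart became 1 with quantile normalization within tissue, cyclic loess and the t-test at 2-fold, and 2 by the t-test after Benjamini-Hochberg. The scalings within tissue bring the *Tk2*+/+ heart arrays towards the dimmer *Tk2*-/- heart arrays, which lowers them against muscle. Shares of all genes were counted for the main fit and, in heart and for the difference, for quantile normalization within tissue. For the other settings no share was counted, so their counts of members describe the settings and are no result about the members.

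Direction turned in heart, in the order quantile within tissue, quantile over 12 arrays, cyclic loess and upper quartile, for *Acaca* (0.48, 0.47, 0.46, 0.48), *Acly* (0.57, 0.58, 0.57, 0.52) and *Srebf1* (0.39, 0.38, 0.40, 0.38), for *Fasn* with cyclic loess (0.0017) and for *Dgat2* with cyclic loess (0.0031) and upper quartile (0.051). The muscle minus heart difference turned for *Acacb* with quantile within tissue (-0.021) and for *Scd2* with both quantile normalizations and cyclic loess (-0.022, -0.025, -0.014). These scalings remove the lower brightness of the *Tk2*-/- heart arrays by construction. The *Scd2* difference also lost its call in 7 of 12 fits with 1 array left out (adjusted p up to 0.0949, limma), among them without *Tk2*+/+ heart replicate 1 (0.45). A further 29 of 1120 values changed sign with no call under either setting. With 3 arrays a group the SE of the changes within a tissue was 0.11 to 0.36 on the log2 scale.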

Other observations

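The genes whose log2 signal was most like that of *Fasn* over the 12 arrays, among 9270 genes with a mean signal of at least 64, were *Cpsf1* (Pearson r = 0.966), *Thrap3* (0.963), *Brpf1* (0.957), *Snrpa1* (0.954) and *Srebf1* (0.952). Each of these 5 had a change above 0 in muscle (0.43 to 0.77) and below 0 in heart as deposited (-0.57 to -0.23). For *Scd1* they were *Mal* (0.936), *Ugt8a* (0.936), *Thrsp* (0.935), *Reln* (0.934) and *Pllp* (0.927), with changes in muscle of -0.16 to 0.58. *Mal*, *Ugt8a* and *Pllp* are known as genes of myelin, and *Thrsp* (Spot 14) as a lipogenic gene of liver and fat. The values are a description with no test: the 12 arrays hold both tissues and both genotypes, so r carries the differences between the groups as well as those within them.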
